A study of Mus musculus with 12 samples.

Results

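A set of 8 genes of the extracellular matrix was followed through the conversion of mouse embryonic stem (ES) cells into extraembryonic endoderm-like (XEN-like) cells with and without Sox7: the nidogens Nid1 and Nid2, the heparan sulfate proteoglycans Hspg2 (perlecan) and Agrn (agrin), Sparc and its relatives Smoc1 and Smoc2, and Fn1 (fibronectin). They were chosen by name, as every probe whose gene name on the array equals one of the 8 symbols. No measured value entered this rule, although earlier results of these data were known when the genes were chosen. These were 13 of 55681 probes and 8 of 34836 gene names, and all probes are described. RNA was measured on 12 one-colour Agilent arrays, 3 for each of 4 groups: ES cells and XEN-like cells of the Sox7 (+/-) line, and ES cells and XEN-like cells of the Sox7 (-/-) line. All 4 groups carried Gata6GR, a fusion of the endoderm factor Gata6 to the ligand-binding part of the human glucocorticoid receptor, from a CAG-driven piggyBac transgene. The XEN-like groups had received dexamethasone (Dex), which activates the fusion, whereas the ES groups had not received it. All 4 groups were taken on day 4. The Sox7 (+/-) line was a single targeted clone of EB3 ES cells in which a puromycin-resistance cassette replaced the Sox7 coding exons, and the Sox7 (-/-) line came out of it by high-dose puromycin selection. Each genotype was thus 1 cell line, no group had 2 intact Sox7 alleles, no group lacked Gata6GR, and any glucocorticoid receptor of the cells themselves also received Dex.

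A basement membrane is a thin sheet of extracellular matrix built on a laminin network and a type IV collagen network. Nidogens bind both networks, and perlecan and agrin, which carry heparan sulfate chains, attach to laminin, nidogen and cell-surface receptors. Sparc is a collagen-binding glycoprotein found in basement membranes, Smoc1 and Smoc2 are basement membrane glycoproteins of the same family, and fibronectin forms fibrils through integrins in mesenchymal and other matrices. In the early mouse embryo the parietal endoderm lays down Reichert's membrane, a thick basement membrane rich in laminin, type IV collagen, nidogen, perlecan and Sparc.

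Levels are given as log2 signal scaled to the 75th percentile of each array, so that 0 is the brightness of that percentile, and a difference of 1 is 2-fold. The 75th percentile lay between 252.3 and 415.9 intensity units, and 41.7 to 52.3% of the spots of an array were well above background by the scanner software. A difference was called when the Benjamini-Hochberg adjusted p of limma, taken over all 25940 probes tested, was under 0.05 and the fold exceeded 2. A gene is read on its brightest probe unless another is named, and levels of different probes are not compared. Sox7 itself was well above background on all Sox7 (+/-) arrays and on no Sox7 (-/-) array, at least 24.6-fold lower in the Sox7 (-/-) than in the Sox7 (+/-) ES cells, and at least 72.6-fold lower in the XEN-like cells. Nanog, an ES cell factor, was well above background on every ES array and on no XEN-like array, while the log2 level of the endoderm factor Sox17 rose by 2.46 in the Sox7 (+/-) line, against 2.41 in the Sox7 (-/-) line.

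Replicate 3 of the Sox7 (+/-) XEN-like cells stood apart from its group. Its correlations with the other two over probes were 0.982 and 0.983, against 0.993 to 0.997 for every other pair within a group, and 8.30% of the probes on it differed over 2-fold from the mean of the other two, against 0.663 to 3.26% on the remaining arrays. Values without it are given beside many, but not all, of the member results that it moved. One slide held the 3 Sox7 (-/-) ES arrays and replicate 1 of the Sox7 (-/-) XEN-like cells and the other slide held the remaining 8 arrays, so the genotypes in ES cells differ in slide as well. Only the Sox7 (-/-) XEN-like group was split over both slides. Every value with slide as a block therefore rests on its replicate 1 against its other replicates. The labels do not say that the replicates were separate cultures, and p-values therefore measure only the spread between these samples. The cells were also measured in bulk, in which fewer cells of one type and less RNA per cell cannot be told apart.

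Of the 8 genes, 4 had more than 1 probe, and for Sparc and Nid1 they gave different genotype differences. The sequences of 3 probes are shown to place the second probe of Nid1, Hspg2 and Agrn, whose brightest probes lie elsewhere in the transcript. Positions are in build mm9, as the array files state them, without exon or coding annotation of that build. The Nid1 probe spans a splice junction (chr13:13530138-13555992, plus strand) and lies 5669 transcript bases from the brightest Nid1 probe (chr13:13604435-13604494), with a further Nid1 probe 4014 bases away from it (chr13:13602780-13602839). The Hspg2 probe (chr4:137125445-137125504, plus strand) lies 947 transcript bases from the brightest Hspg2 probe (chr4:137126392-137126451). The Agrn probe (chr4:155546878-155546937, minus strand) lies 3692 transcript bases from the brightest Agrn probe (chr4:155539415-155539474). All letters are lower case because no part is marked, and each reads 5′ to 3′.
Nid1, A_55_P2084303: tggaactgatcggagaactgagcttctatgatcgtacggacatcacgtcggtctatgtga
Hspg2, A_55_P1959648: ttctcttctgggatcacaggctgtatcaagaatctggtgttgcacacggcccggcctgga
Agrn, A_55_P2009127: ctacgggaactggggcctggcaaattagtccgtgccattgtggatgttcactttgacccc

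The windows upstream of the transcription start of Nid1 and Sparc are shown as well, to set the member with the largest rise beside one whose brightest probe changed by less than 2-fold. RefSeq windows of build GRCm38.p6 were matched for 4 of the 8 genes, Sparc, Nid1, Hspg2 and Agrn, the last with 2 start sites. The 250 bases before each start were searched on both strands for GATA motifs (AGATAA, or AGATAG, or TGATAA, or TGATAG), a Sox motif (AACAAT), the GC box (GGGCGG) and the TATA box (TATAAA), and matches of different motifs were counted separately where they overlapped. The Nid1 window (chr13:13437352-13437601, plus strand) was 64.4% G and C and held 1 GC box, in capitals, 67 bases before the start. The Sparc window (chr11:55420081-55420330, minus strand) was 54.0% G and C and held no match to any of these motifs.
Nid1 upstream window: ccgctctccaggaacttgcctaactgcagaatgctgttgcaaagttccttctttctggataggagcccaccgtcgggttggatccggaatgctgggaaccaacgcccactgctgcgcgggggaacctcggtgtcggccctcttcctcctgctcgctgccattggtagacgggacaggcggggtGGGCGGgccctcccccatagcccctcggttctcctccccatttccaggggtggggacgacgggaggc
Sparc upstream window: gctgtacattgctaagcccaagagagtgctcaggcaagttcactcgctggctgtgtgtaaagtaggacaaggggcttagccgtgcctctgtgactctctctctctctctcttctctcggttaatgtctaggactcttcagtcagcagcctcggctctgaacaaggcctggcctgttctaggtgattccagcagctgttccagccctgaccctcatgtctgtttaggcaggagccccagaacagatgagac
The Hspg2 window held 5 GC boxes and the 2 Agrn windows held 2 and 12. None of the 5 windows held a GATA, Sox or TATA box match, and such matches were found in 26.6%, 9.42% and 12.4% of all 32817 windows of this length, against 32.7% for the GC box. These are matches of letters only and do not show a site.

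The first question was how the matrix genes responded when Gata6GR was activated. Of the 8 genes, 7 could be tested, and the responses ran in both directions. In Sox7 (+/-) cells Nid1 was called higher and Fn1 lower, and in Sox7 (-/-) cells Nid1 and Nid2 were called higher and Fn1 lower. Over all 18946 genes tested, 11.0% were called higher and 14.0% lower in Sox7 (+/-) cells, and 14.5% higher and 14.1% lower in Sox7 (-/-) cells. Sparc, Agrn, Nid2 and Smoc1 passed the adjusted p in Sox7 (+/-) cells with changes under 2-fold, as did Sparc and Agrn in Sox7 (-/-) cells, at a threshold that 64.0% and 66.3% of all tested genes passed. The median change of the 7 genes was 0.47 in Sox7 (+/-) and 0.33 in Sox7 (-/-) cells, beside 0.16 and 0.07 over all tested genes.

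**Figure D1:**
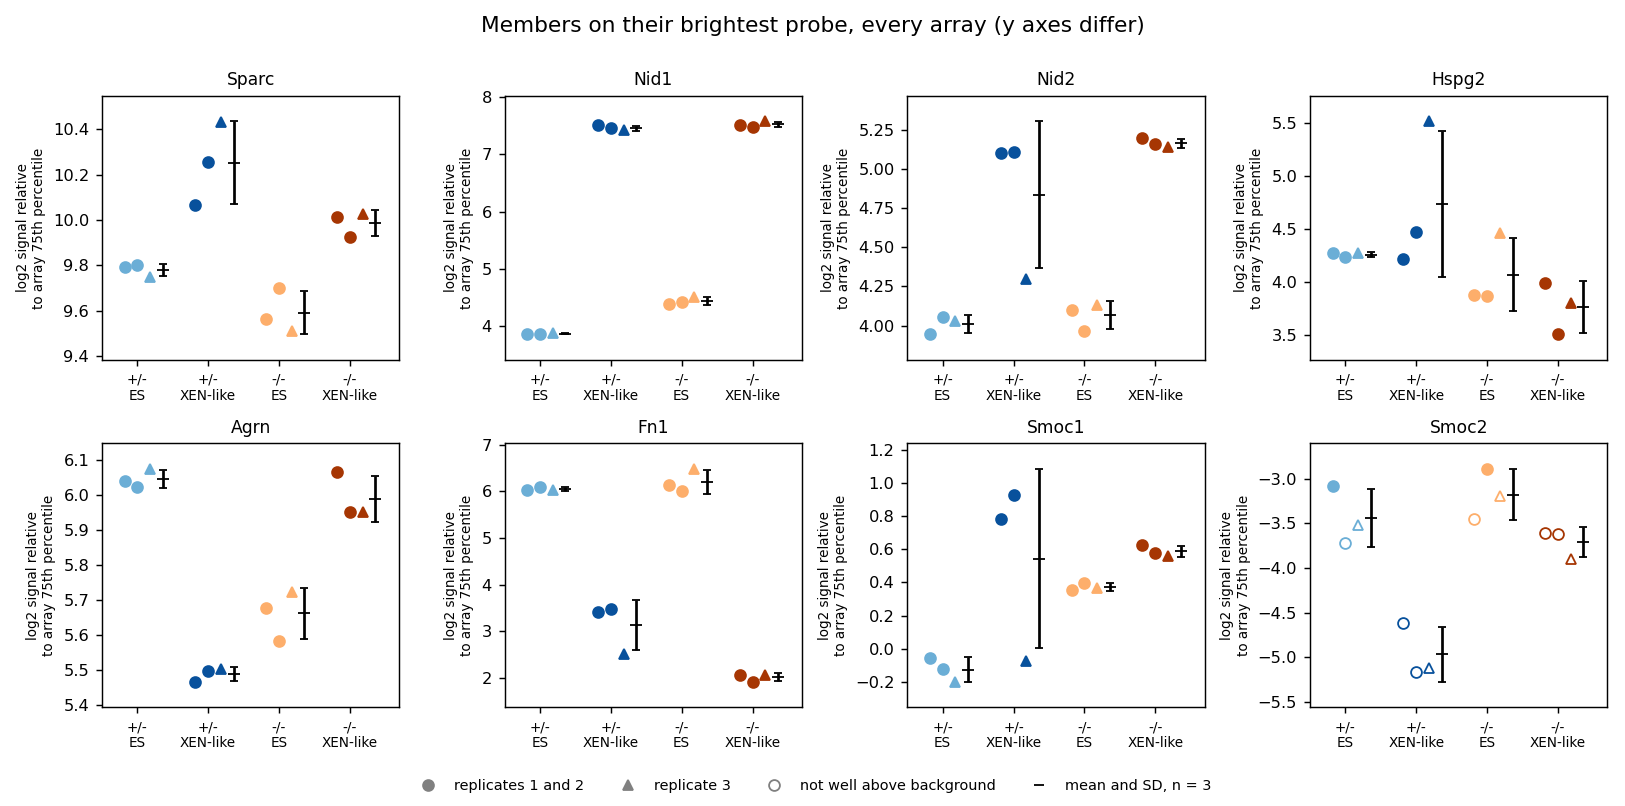
Level of the 8 genes on their brightest probes, as log2 signal scaled to each array's 75th percentile, in the 4 groups; each point is 1 array, bars are the mean ± SD (n = 3), triangles are replicate 3, and open symbols are not well above background. Nid1 separates ES from XEN-like cells upward and Fn1 downward, while Smoc2 is mostly open.

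Nid1, which joins laminin to type IV collagen, had the clearest response. Its level was 3.86, 3.86 and 3.87 in Sox7 (+/-) ES cells and 7.51, 7.45 and 7.42 in Sox7 (+/-) XEN-like cells. It was 4.39, 4.41 and 4.52 in Sox7 (-/-) ES cells and 7.51, 7.49 and 7.58 in Sox7 (-/-) XEN-like cells. All XEN-like arrays lay above all ES arrays, and the order from the lowest group was Sox7 (+/-) ES, Sox7 (-/-) ES, then both XEN-like groups, whose ranges overlapped. Nid1 rose by 3.60 ± 0.06 (SE, n = 3 per group; 12.1-fold, limma adjusted p = 4.7e-11) in Sox7 (+/-) cells and by 3.09 (8.49-fold, adjusted p = 7.8e-11) in Sox7 (-/-) cells.

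Both other Nid1 probes rose too. The junction probe read -2.01, -2.02 and -2.19 in Sox7 (+/-) ES cells against 1.85, 1.97 and 2.28 after Dex, and -2.32, -2.59 and -2.50 in Sox7 (-/-) ES cells against 1.25, 1.20 and 1.33 after Dex. These are rises of 17.2-fold and 13.3-fold. The third Nid1 probe read -1.56, -1.65 and -1.76, then 2.17, 2.24 and 0.81 in Sox7 (+/-) cells, and -1.22, -1.36 and -0.96, then 2.18, 2.32 and 2.39 in Sox7 (-/-) cells, rises of 10.5-fold and 11.1-fold. No ES array overlapped an XEN-like array on any Nid1 probe, and the low value of 0.81 came from replicate 3 of the Sox7 (+/-) XEN-like cells.

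Nid2, the second nidogen, changed less. It read 3.94, 4.05 and 4.03 in Sox7 (+/-) ES cells and 5.10, 5.11 and 4.30 in Sox7 (+/-) XEN-like cells, and 4.10, 3.96 and 4.13 in Sox7 (-/-) ES cells against 5.20, 5.16 and 5.14 after Dex (chr14:20630490-20630549). The ES groups overlapped each other and lay below every XEN-like array, of which replicate 3 of the Sox7 (+/-) group was the lowest. Nid2 rose by 1.10 (2.14-fold) in Sox7 (-/-) cells (limma adjusted p = 0.00037), close to the 2-fold limit, and quantile and median scaling put it just under, the latter at 0.97. In Sox7 (+/-) cells the change was 0.83 on the log2 scale (1.77-fold, adjusted p = 0.0027), and without that replicate it was 1.10 (adjusted p = 6.5e-07), past the 2-fold limit. It did not pass with spike-in scaling, at 0.33 (adjusted p = 0.30), or in the deposited table, at 0.34 (adjusted p = 0.14).

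The 2 probes of Sparc, which lie 937 transcript bases apart, gave responses of different size. The brightest probe (chr11:55208939-55208998, minus strand) read 9.79, 9.80 and 9.75 in Sox7 (+/-) ES cells, 10.07, 10.26 and 10.43 in Sox7 (+/-) XEN-like cells, 9.56, 9.70 and 9.51 in Sox7 (-/-) ES cells and 10.01, 9.92 and 10.03 in Sox7 (-/-) XEN-like cells. Every XEN-like array was above every ES array, by margins that gave 1.39-fold (limma adjusted p = 0.0014) and 1.32-fold (adjusted p = 0.0036). The direction in Sox7 (+/-) cells was not kept when arrays were scaled on spike-in probes, which gave -0.0192 and moved the median of all tested genes by -0.49, nor in the deposited unscaled table, which gave -0.0206. With quantile normalization it was 0.09 (adjusted p = 0.13), and in Sox7 (-/-) cells the deposited table gave 0.39 (adjusted p = 0.053).

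The other Sparc probe (chr11:55208003-55208061) rose past 2-fold in both genotypes. It read 4.27, 4.10 and 4.39 in Sox7 (+/-) ES cells and 5.75, 5.85 and 5.46 after Dex, and 3.31, 3.25 and 3.17 in Sox7 (-/-) ES cells and 5.37, 5.74 and 5.59 after Dex. The ES groups did not overlap each other, with Sox7 (-/-) lower, whereas the XEN-like groups did. The rise was 1.43 on the log2 scale (2.70-fold) in Sox7 (+/-) cells (limma adjusted p = 4.7e-06) and 2.32 on the log2 scale in Sox7 (-/-) cells (adjusted p = 9.5e-08).

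**Figure D2:**
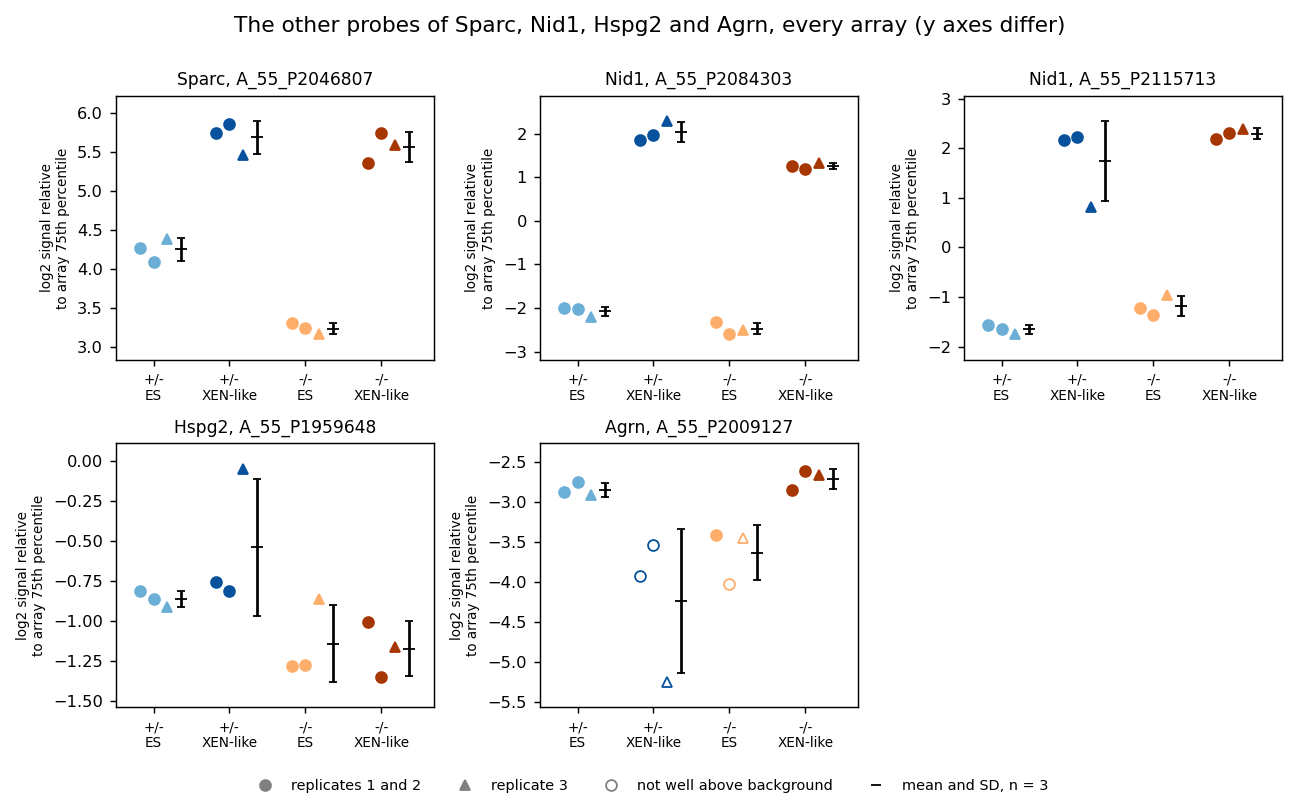
Level of the 5 further probes of Sparc, Nid1, Hspg2 and Agrn on every array, as log2 signal scaled to each array's 75th percentile, drawn as in the plot of the brightest probes, with mean ± SD (n = 3) and open symbols where a probe was not well above background. Replicate 3 of the Sox7 (+/-) XEN-like cells (triangle) is at 0.81 on the third Nid1 probe and at -0.05 on the second Hspg2 probe, away from the other two arrays of its group.

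Smoc1, a relative of Sparc, changed by less than 2-fold on its single probe (chr12:82286760-82286819, plus strand). It read -0.06, -0.12 and -0.20 in Sox7 (+/-) ES cells, 0.78, 0.93 and -0.08 in Sox7 (+/-) XEN-like cells, 0.35, 0.40 and 0.37 in Sox7 (-/-) ES cells and 0.62, 0.58 and 0.56 in Sox7 (-/-) XEN-like cells. Replicate 3 of the Sox7 (+/-) XEN-like cells fell within the range of the untreated cells. The change in Sox7 (+/-) cells was 0.67 (limma adjusted p = 0.016) with that array and 0.98 (adjusted p = 1.3e-06) without it. It did not pass without replicate 1 or replicate 2 (adjusted p = 0.060 and 0.061), with spike-in scaling, at 0.18 (adjusted p = 0.61), or in the deposited table, at 0.18 (adjusted p = 0.48), nor, at an adjusted p of 0.077, with only the arrays compared. In Sox7 (-/-) cells it was 0.22 (adjusted p = 0.38), or 0.22 with adjusted p = 0.0091 when the array was left out of the shared estimate of the spread.

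Smoc2 was near background. Its probe (chr17:14541664-14541723, plus strand) was well above background on 2 of 12 arrays, replicate 1 of the Sox7 (+/-) ES cells at -3.08 and replicate 2 of the Sox7 (-/-) ES cells at -2.89. The remaining values ran from -3.71 to -3.19 in ES cells and from -5.16 to -3.60 in XEN-like cells. These values have no reliable order, and Smoc2 was not tested.

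Perlecan did not pass the test for a Dex response. The brightest Hspg2 probe read 4.27, 4.23 and 4.27 in Sox7 (+/-) ES cells, 4.22, 4.47 and 5.51 in Sox7 (+/-) XEN-like cells, 3.87, 3.86 and 4.46 in Sox7 (-/-) ES cells and 3.99, 3.51 and 3.81 in Sox7 (-/-) XEN-like cells. The ES and XEN-like ranges overlapped in both genotypes, and the value of 5.51 was that of replicate 3. The difference was 0.47 (limma adjusted p = 0.19) in Sox7 (+/-) and -0.30 (adjusted p = 0.40) in Sox7 (-/-) cells, and without that replicate the first of these was 0.08 (adjusted p = 0.72). The second Hspg2 probe gave 0.32 and -0.03, neither past the test, and the first of these was 0.08 without that replicate, while with normexp background correction it passed at 0.31 (adjusted p = 0.044). It read -0.81, -0.86 and -0.91, then -0.76, -0.81 and -0.05 in Sox7 (+/-) cells, and -1.28, -1.28 and -0.86, then -1.01, -1.35 and -1.16 in Sox7 (-/-) cells, so the same replicate was the highest array on both probes.

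Agrin, the other proteoglycan and best known for organizing the neuromuscular synapse, was lower after Dex in Sox7 (+/-) cells and higher in Sox7 (-/-) cells. The brightest probe read 6.04, 6.02 and 6.07 in Sox7 (+/-) ES cells and 5.47, 5.50 and 5.50 in Sox7 (+/-) XEN-like cells, and 5.68, 5.58 and 5.72 in Sox7 (-/-) ES cells against 6.07, 5.95 and 5.95 in Sox7 (-/-) XEN-like cells. Sox7 (+/-) XEN-like cells were the lowest group and overlapped no other, Sox7 (-/-) ES cells came next, and the highest 2 groups overlapped. Agrn changed 1.47-fold downward in Sox7 (+/-) cells (limma adjusted p = 2.6e-05) and 1.26-fold upward in Sox7 (-/-) cells (adjusted p = 0.00096), both past the adjusted p and under 2-fold. With spike-in scaling and in the deposited table the first of these changes was -1.05 in each and past 2-fold, while the second did not pass, at 0.24 (adjusted p = 0.14) and 0.35 (adjusted p = 0.083).

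The second Agrn probe was dim and ran the same way. It read -2.88, -2.76 and -2.92 in Sox7 (+/-) ES cells and was not well above background on the Sox7 (+/-) XEN-like arrays, where its signal was -3.93, -3.54 and -5.25. It read -3.42, -4.03 and -3.46 in Sox7 (-/-) ES cells, of which only the first was well above background, and -2.85, -2.62 and -2.67 in Sox7 (-/-) XEN-like cells. Counting dim signals at the lowest level measured above background on those arrays, it was at least 1.27-fold lower in Sox7 (+/-) XEN-like than ES cells. The limma adjusted p of 0.0067 belongs to the fit to the measured dim signals, and the bound itself was not tested. With normexp background correction this fall did not pass, at -0.17 (adjusted p = 0.059). The difference in Sox7 (-/-) cells was 0.92 (adjusted p = 0.043), and with slide as a block it was 0.78 (adjusted p = 0.25). It also missed the adjusted p with quantile (0.090), median (0.076) and spike-in scaling (0.11) and in the deposited table (0.090). The same held with no filter on dim probes (0.095), with the replicate block (0.057) and in 9 of 12 fits that left out a single array.

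Fibronectin was the one gene of the 8 that was called lower after Dex, and in both genotypes. Its single probe (chr1:71632116-71632175, minus strand) read 6.02, 6.10 and 6.03 in Sox7 (+/-) ES cells and 3.40, 3.47 and 2.51 in Sox7 (+/-) XEN-like cells, and 6.13, 5.996 and 6.48 in Sox7 (-/-) ES cells and 2.06, 1.91 and 2.06 in Sox7 (-/-) XEN-like cells. The ES groups overlapped, every XEN-like array was lower than every ES array, and every Sox7 (-/-) XEN-like array was lower than every Sox7 (+/-) one. Fn1 fell by 2.92 on the log2 scale (7.59-fold, limma adjusted p = 1.4e-06) in Sox7 (+/-) cells and fell by 4.19 (18.2-fold, adjusted p = 7.2e-08) in Sox7 (-/-) cells.

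Markers of other cells moved beside these responses. A list of 8 fibroblast markers had a mean level per array of -2.89 to -2.50 in Sox7 (+/-) ES and -2.35 to -2.25 in Sox7 (-/-) ES cells, against -4.45 to -4.13 and -4.72 to -4.31 in the XEN-like groups. Of these 8, 5 were well above background on all arrays of each ES group and 1 in each XEN-like group, while Dcn and Lum were not well above background on any array. The part of fibroblast-like cells in the lower Fn1 of XEN-like cells was not tested. A list of 8 parietal endoderm markers, which includes Lama1 and Col4a1, went from 3.22 to 3.30 up to 5.06 to 5.37 in Sox7 (+/-) cells and from 2.12 to 2.18 up to 4.76 to 4.82 in Sox7 (-/-) cells. Its part in the Nid1 and Nid2 rise was not tested.

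**Figure D3:**
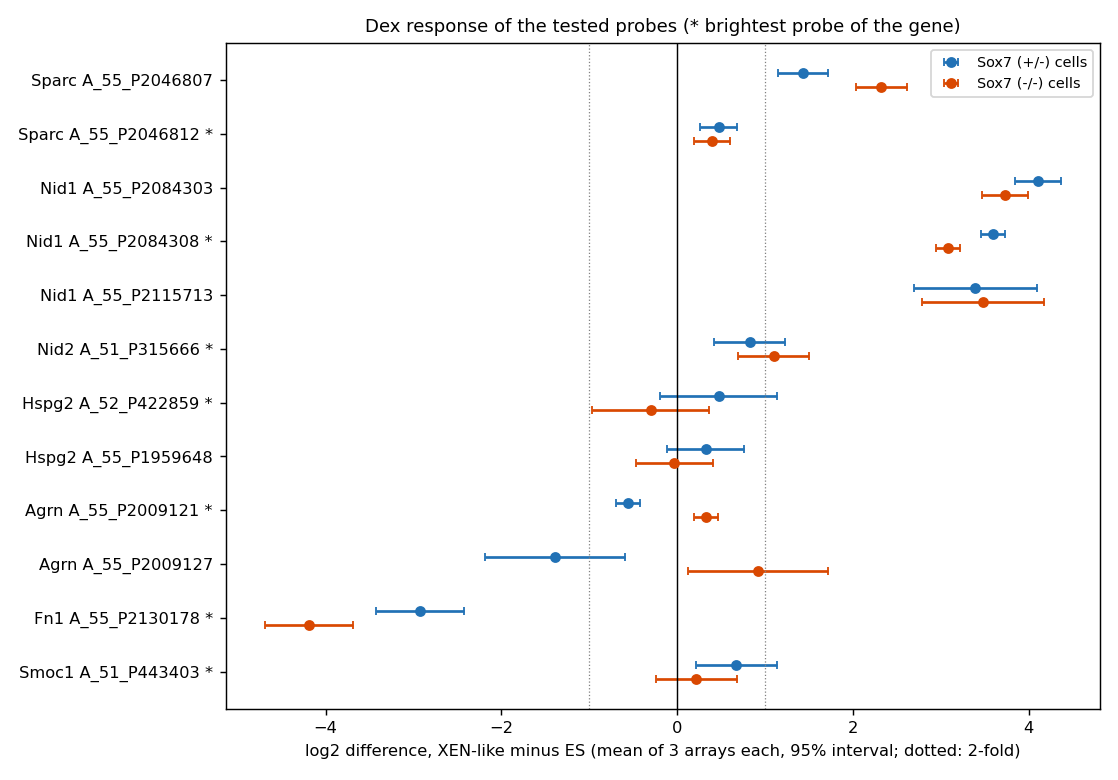
Dex response of the 12 probes tested, as log2 level in XEN-like minus ES cells with the 95% interval of the limma fit, in Sox7 (+/-) and Sox7 (-/-) cells (n = 3 per group); dotted lines mark 2-fold. The 3 Nid1 probes lie far to the right, Fn1 far to the left, and the Hspg2 probes span 0; the values of the dim Agrn probe are fitted to signals partly not well above background.

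The second question was whether XEN-like cells with and without Sox7 differed. Of the 7 genes tested, Fn1 was called lower in Sox7 (-/-) XEN-like cells and none was called higher, against 3.40% called lower and 4.13% called higher over all tested genes. Fn1 differed by -1.11 (2.17-fold lower, limma adjusted p = 0.0042, n = 3 per group). The difference was -1.14 (adjusted p = 0.029) within the slide that held most arrays, and -1.42 (adjusted p = 4.4e-05) without replicate 3 of the Sox7 (+/-) group. Without replicate 1 or replicate 2 of that group it was -0.98 or -0.94, with spike-in scaling -0.87, in the deposited table -0.65 and with normexp background correction -0.997, all past the adjusted p and none past 2-fold. Agrn and Hspg2 passed the adjusted p with changes under 2-fold, at a threshold that 35.3% of all tested genes passed.

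Agrn was 0.50 higher in Sox7 (-/-) XEN-like cells (1.42-fold, limma adjusted p = 0.00028), and its dim probe was at least 1.40-fold higher. For the dim probe the fit to the measured signals, not the bound, gave an adjusted p of 0.0093, or 0.061 with only the arrays compared. Hspg2 was lower by a difference of -0.96 (1.95-fold, adjusted p = 0.031) on the brightest probe and -0.63 (adjusted p = 0.031) on the other. Without replicate 3 of the Sox7 (+/-) group these Hspg2 differences were -0.57 (adjusted p = 0.048) and -0.39 (adjusted p = 0.055). Without replicate 1 or 2 of that group the brightest probe was called lower, at -1.22 and -1.10, as it was with slide as a block, at -1.08 (adjusted p = 0.047), without replicate 1 of the Sox7 (-/-) group, also at -1.08, and with quantile and median scaling, at -1.01 and -1.03. Without replicate 2 or 3 of the Sox7 (-/-) group it missed the adjusted p, at 0.10 and 0.065, and with only the arrays compared the adjusted p was 0.11. Within the slide that held 2 arrays of the Sox7 (-/-) XEN-like group and all 3 of the other, a fit added after the data were seen, the differences of the 2 probes were -1.08 (adjusted p = 0.072) and -0.72 (adjusted p = 0.064). The second probe did not pass with spike-in scaling, at -0.39 (adjusted p = 0.10), or in the deposited table, at -0.16 (adjusted p = 0.47).

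The nidogens and Sparc showed no called difference between XEN-like cells on their brightest probes. The Nid1 difference was 0.06, with a 95% interval of -0.07 to 0.20 (limma adjusted p = 0.45), that of Nid2 0.33 with an interval of -0.08 to 0.74 (adjusted p = 0.19), and that of Sparc -0.26 (adjusted p = 0.051). The junction probe of Nid1 was an exception, with a difference of -0.77 (adjusted p = 0.00084), although in the deposited table it was -0.29 (adjusted p = 0.17). The third Nid1 probe gave 0.56 (adjusted p = 0.19), and 0.09 without replicate 3 of the Sox7 (+/-) group. In the deposited table, which shifts the median of all tested genes by 0.35 here, the brightest Nid1 probe, the third Nid1 probe and Nid2 passed as higher in Sox7 (-/-) cells, at 0.49, 0.99 and 0.78. Without that replicate the Nid2 difference was 0.06. The Sparc difference, close to the threshold, passed without replicate 1 of the Sox7 (+/-) group, at -0.36 (adjusted p = 0.012), and with median scaling, at -0.33 (adjusted p = 0.021), and was -0.17 without replicate 3. For Smoc1 the difference was 0.04 (adjusted p = 0.89), and it turned to -0.27 (adjusted p = 0.013) without replicate 3.

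A list of 9 visceral endoderm markers stood at a mean level of 0.86 to 1.05 per array in Sox7 (+/-) XEN-like cells and 2.35 to 2.44 in Sox7 (-/-) XEN-like cells, and 6 of the 7 tested were called higher. The mean of the 7 ES markers was 0.39 to 0.91 against -0.21 to 0.05, but 2 of the 7 were called higher and the median difference was -0.07, with Esrrb at 4.63. Their part in the Agrn, Hspg2 and Fn1 differences was not tested.

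The ES cells of the genotypes were compared with the limit that slide and genotype are tied. No member was called on its brightest probe, against 1.96% called higher and 6.57% lower in Sox7 (-/-) cells over all tested genes. Nid1 was 0.57 higher in Sox7 (-/-) ES cells (limma adjusted p = 6.5e-05) and Agrn differed by -0.39 (1.31-fold lower, adjusted p = 0.00087), at a threshold that 46.6% of all tested genes passed. With slide as a block these were 0.60 (adjusted p = 0.012) and -0.50 (adjusted p = 0.020). As the block rests on a single Sox7 (-/-) XEN-like array, it cannot settle the part of slide in ES cells. The junction probe of Nid1 went the other way, at -0.40 (adjusted p = 0.019), or -0.39 with slide as a block (adjusted p = 0.29). This difference also missed the adjusted p with quantile normalization (0.12), normexp (0.065), no filter on dim probes (0.057) and in the deposited table (0.32). The same held in 4 of 12 fits that left out a single array. The third Nid1 probe gave 0.47 (adjusted p = 0.24), which passed without replicate 3 of the Sox7 (+/-) XEN-like cells (adjusted p = 0.0046). The second Sparc probe was lower in Sox7 (-/-) ES cells by a difference of -1.01 (2.02-fold, adjusted p = 0.0002), and with slide as a block by -0.72 (adjusted p = 0.061). For Fn1 the difference was 0.15 (adjusted p = 0.62) and for Smoc1 0.50 (adjusted p = 0.073). The Smoc1 difference passed when replicate 3 of the Sox7 (+/-) XEN-like cells was left out of the shared estimate of the spread (adjusted p = 0.00014), when replicate 2 was (adjusted p = 0.044), with only the arrays compared (adjusted p = 0.0012) and with normexp background correction, at 0.42 (adjusted p = 0.041). Sparc on its brightest probe differed by -0.19 (adjusted p = 0.13), which passed without that replicate 3 (adjusted p = 0.047) and, at -0.46 and -0.34, with quantile and spike-in scaling.

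The responses themselves were then compared, as the Dex response in Sox7 (-/-) minus that in Sox7 (+/-) cells. Fn1 was called, with a difference of -1.26 (limma adjusted p = 0.015), against 3.15% of all tested genes called lower and 6.99% called higher, where no member was. Nid1 and Agrn passed the adjusted p with differences under 2-fold, at a threshold that 28.8% of all tested genes passed. With slide as a block the Fn1 difference was -1.21 (adjusted p = 0.076), with spike-in scaling -0.86 (adjusted p = 0.17) and in the deposited table -0.73 (adjusted p = 0.067), and without replicate 3 of the Sox7 (+/-) XEN-like cells it was -1.57 (adjusted p = 0.00015). Nid1 differed by -0.51, with a 95% interval of -0.70 to -0.32 (adjusted p = 0.002), which came with its higher level in untreated Sox7 (-/-) cells, and the junction probe by -0.38 (adjusted p = 0.12). The Nid1 difference did not pass with quantile normalization, at -0.27 (adjusted p = 0.14), with spike-in scaling, at -0.11 (adjusted p = 0.73), or in the deposited table, at -0.0574 (adjusted p = 0.91).

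Agrn differed by 0.89, with an interval of 0.69 to 1.08 (limma adjusted p = 7.1e-05), and with slide as a block by 0.96 (adjusted p = 0.0004). With spike-in scaling and in the deposited table the Agrn difference was past 2-fold and called higher. For its dim probe no size of this difference is given, since the probe was not well above background on any Sox7 (+/-) XEN-like array. The second Sparc probe responded more in Sox7 (-/-) cells by 0.89 (adjusted p = 0.0057), or 0.69 with slide as a block (adjusted p = 0.051), whereas the brightest Sparc probe differed by -0.08, and with quantile normalization by 0.48 (adjusted p = 0.00084). Nid2 differed by 0.27 (adjusted p = 0.47), Hspg2 by -0.77 (adjusted p = 0.20) and Smoc1 by -0.46 (adjusted p = 0.28), none of which passed. Without replicate 3 of the Sox7 (+/-) XEN-like cells the Smoc1 difference was -0.77 and passed (adjusted p = 0.00023), and the Hspg2 difference was -0.38 (adjusted p = 0.30).

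**Figure D4:**
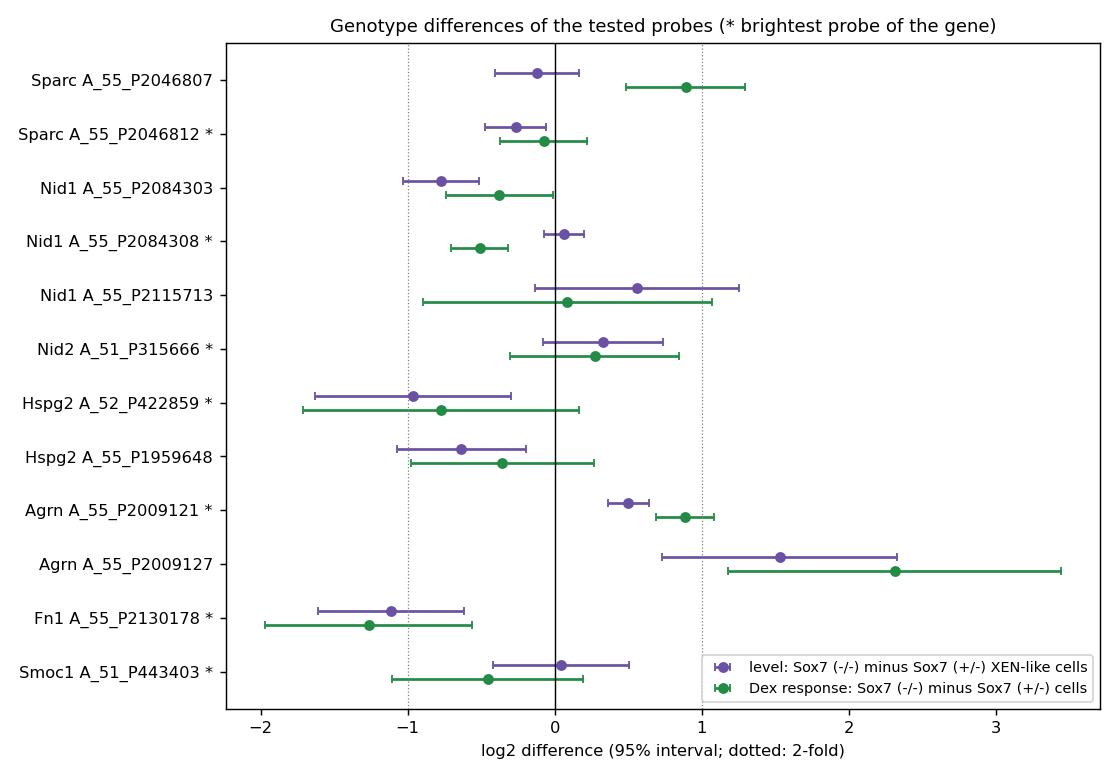
Difference between genotypes for the 12 probes tested, as log2 of Sox7 (-/-) minus Sox7 (+/-) in XEN-like cells and as the difference between their Dex responses, with 95% intervals of the limma fit (n = 3 per group). Both columns use the same XEN-like arrays and are not independent; Agrn lies above 0 and Fn1 below 0 in both, and the values of the dim Agrn probe are fitted to signals not well above background and give no size.

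The partners to which these proteins bind were followed as well. All 5 network genes, the laminin-111 chains Lama1, Lamb1 and Lamc1 and the type IV collagen chains Col4a1 and Col4a2, were called higher in both genotypes. In the Sox7 (+/-) and Sox7 (-/-) lines respectively, Lama1 rose by 1.30 and 1.42, and Col4a1 by 2.44 and 3.14. The median of the 5 was 2.13 and 2.26, beside 0.16 and 0.07 over all tested genes, and none was called between the XEN-like groups. With spike-in scaling and in the deposited table, 4 of the 5 were called higher in Sox7 (+/-) cells. Of the nidogens, perlecan and agrin, which attach to these chains, Nid1 alone was called in both genotypes.

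Other matrix genes of basement membranes and the Sparc family moved both ways. Of 19 tested, 8 were called higher and 6 lower in Sox7 (+/-) cells, and 6 and 3 in Sox7 (-/-) cells, with medians of 0.71 and 0.18. Over all tested genes 11.0% were called higher and 14.0% lower in Sox7 (+/-) cells, and 14.5% and 14.1% in Sox7 (-/-) cells. The medians over all tested genes were 0.16 and 0.07. With spike-in scaling the counts among the 19 in Sox7 (+/-) cells were 5 higher and 7 lower. Spock1, a proteoglycan of the Sparc family, rose at least 13.5-fold and at least 16.8-fold, and Ntn4, a laminin-related netrin, rose by 2.81 and at least 7.11-fold. Efemp1, a fibulin, was at least 6.50-fold lower and Thbs1, encoding thrombospondin, fell by 3.15 on the log2 scale in Sox7 (+/-) cells, while the guidance factor Ntn1 was at least 38.0-fold lower and the fibulin Fbln5 at least 3.45-fold lower in Sox7 (-/-) cells. Between XEN-like cells 1 was called higher in Sox7 (-/-) cells, the integrin ligand Npnt, which was not well above background in either group. Fras1 and Ntn1 were the 2 called lower. Ntn1 was at least 2.15-fold lower, and 2 of the 3 Sox7 (+/-) arrays were well above background for it. For Fras1 the fit gave -3.32 (limma adjusted p = 0.028). This is not a reliable size, since only 1 of 3 Sox7 (-/-) XEN-like arrays was well above background. Without replicate 3 of the Sox7 (+/-) cells, 5 of these genes were called lower between XEN-like cells.

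Of the receptors of these proteins 17 were tested, and 2 were called higher and 8 lower in Sox7 (+/-) cells, and 3 and 7 in Sox7 (-/-) cells, with medians of -0.96 and -0.36. The shares over all tested genes were 11.0% higher and 14.0% lower in Sox7 (+/-) cells, and 14.5% and 14.1% in Sox7 (-/-) cells. Between XEN-like cells these shares were 4.13% and 3.40%. Lrp4, the receptor of agrin in muscle, rose by 2.43 and 2.33, and Itgb6, an integrin chain, was at least 2.85-fold higher, with 2 of 3 XEN-like arrays well above background, and at least 2.01-fold higher. Itgb3, an integrin chain that takes part in fibronectin binding, was at least 2.30-fold lower in Sox7 (+/-) cells, and the laminin-binding Itga7 at least 10.5-fold lower in Sox7 (-/-) cells. The collagen receptor Ddr2 was at least 1.94-fold and 2.83-fold lower, and Bcam, a receptor of laminin alpha5, differed by -1.15 between XEN-like cells and was the 1 receptor called there, though not with slide as a block.

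Perlecan and agrin carry heparan sulfate, and of 21 tested enzymes that make or trim these chains 8 were called higher and 2 lower in Sox7 (+/-) cells, and 10 and 2 in Sox7 (-/-) cells, with medians of 0.81 and 0.85. The shares over all tested genes were 11.0% higher and 14.0% lower in Sox7 (+/-) cells, and 14.5% and 14.1% in Sox7 (-/-) cells. Between XEN-like cells these shares were 4.13% and 3.40%. The sulfotransferases Hs3st1 and Hs6st2 rose by 2.77 and 2.62 in Sox7 (+/-) and by 3.78 and 2.83 in Sox7 (-/-) cells. Extl1, of the exostosin family, was at least 2.26-fold lower in Sox7 (+/-) cells and changed by -1.91 in Sox7 (-/-) cells, and Sulf1, which removes sulfate from finished chains, changed by -1.83 and -1.33. Between XEN-like cells Hs6st2 differed by -1.54 and the heparanase gene Hpse by -1.21, both called lower in Sox7 (-/-) cells, and 1 enzyme was called lower there without replicate 3 of the Sox7 (+/-) group. Of 9 tested proteoglycans that hold such chains at the cell surface, 3 were called higher and 2 lower in Sox7 (+/-) cells, and 4 and 1 in Sox7 (-/-) cells, with medians of 0.19 and 0.56. The median in Sox7 (+/-) cells turned to -0.30 with spike-in scaling and to -0.22 in the deposited table, where 1 was called higher. The glypicans Gpc4 and Gpc6 rose by 2.02 and 2.23 in Sox7 (-/-) cells, Gpc4 by 1.71 and Gpc2, well above background on 1 of 3 XEN-like arrays, at least 2.13-fold in Sox7 (+/-) cells, and Gpc1 changed by -1.69 and -2.40, whereas Gpc3 changed by -1.75 in Sox7 (+/-) cells.

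**Figure D5:**
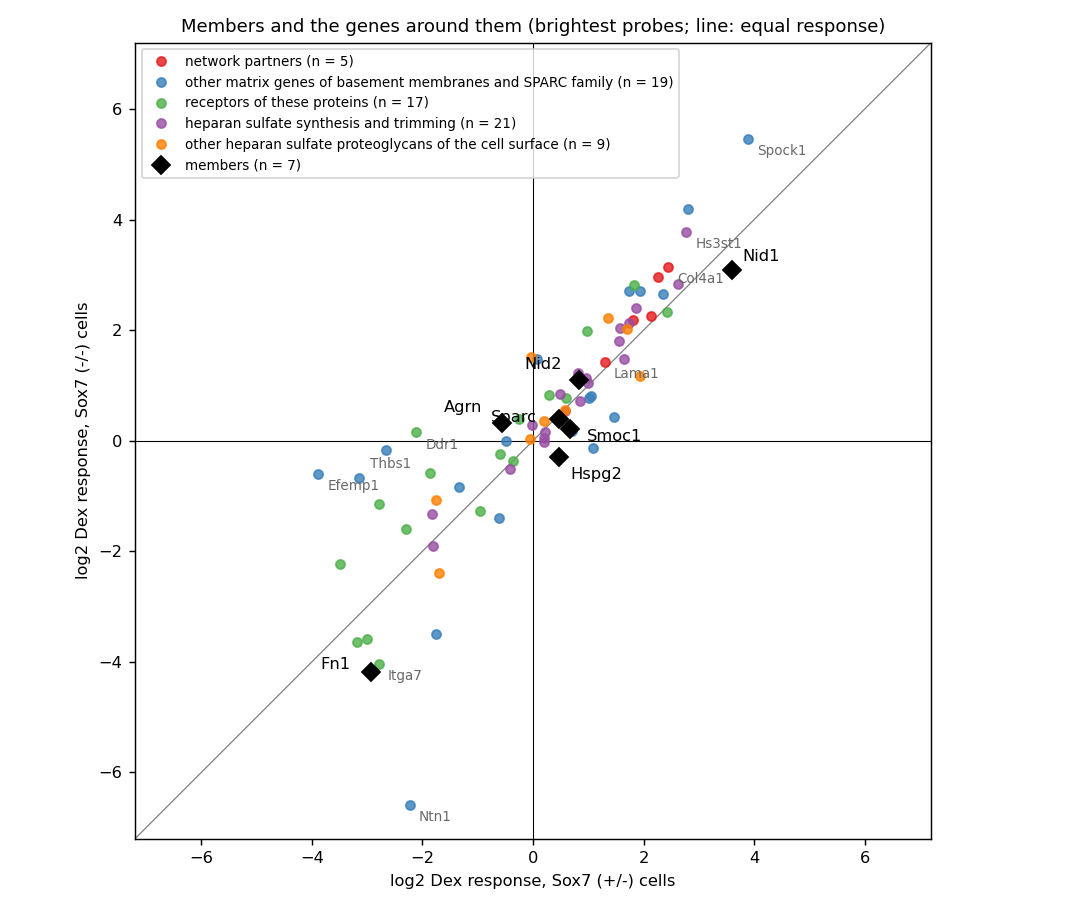
Dex response in Sox7 (-/-) cells (y axis) against that in Sox7 (+/-) cells (x axis), both as log2 XEN-like minus ES, for the members (diamonds) and for the genes of 5 lists around them (circles); the diagonal marks equal responses. Values of genes not well above background in one group are fitted and not bounds; the 5 network partners lie in the upper right with Nid1, and Fn1 lies in the lower left with receptors such as Itga7.

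The genes most like each member were taken from 13126 genes by Pearson correlation over the 12 arrays, which share the same 4 groups, so that any gene with a like pattern of group means scores highly. For Nid1 these were St7l and Ppic (r = 0.997 each), for Nid2 Atoh1 and Chmp2b (0.991 each), for Fn1 Glod5 (0.994) and Nup210 (0.993), and for Sparc Prl2c1 (0.975) and Pdrg1 (0.974). The values were lower for Smoc1, with Lrrn1 (0.967) and Ggh (0.966), for Agrn, with Prss8 (0.948) and Wdr86 (0.946), and for Hspg2, with Lrrc31 (0.936) and Zfp408 (0.924).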

How the data were processed

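Total RNA of the 4 groups, 3 samples each, had been labelled with Cy3 and hybridized by the authors to Agilent mouse arrays. The deposited intensity values are scanner output of Agilent Feature Extraction 10.7.3.1, in which the processed signal is background-subtracted but not scaled between arrays. The authors analysed them with NIA Array Analysis. A deposited table of all arrays held linear intensity values within 0.498% of the mean spot signal and served as an alternative. No spot was saturated on any array for the members.

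Of 59305 spots that were not controls, outlier-flagged ones were left out and spots of 1 probe were averaged on the log2 scale, computed here from the deposited intensity relative to the 75th percentile of each array. A probe was tested if 1 group or more had it well above background on its 3 arrays. One model of all 12 arrays was run in limma 3.58.1 (R 4.3.3), with 5 comparisons and 1.987 prior degrees of freedom, and the procedure was tested on simulated data. Error and interval are from that fit. The number of arrays limits the precision. Signals near background do not give a reliable size of a difference. Groups with no array above background are therefore given as bounds. A bound sets the bright group's mean against the lowest signal measured above background on the dim arrays.

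Samples were grouped by the labels. The 3 Sox7 (+/-) ES samples are numbered 1 to 3 by title, although another label field gives each the number 1. All members were named, and from each list the 2 largest called rises and falls per comparison. Members and lists were chosen with earlier results of these data known. Alternatives were other scalings, background corrections and filters, slide and replicate blocks, and leaving out each array. Fits within a slide and a fit that kept outlier-flagged spots were chosen after seeing the data. No genome of build mm9 was used, and probe sequences that could lie in untranslated ends are not printed.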

Additional observations from a re-analysis of the deposited data

Results flagged for a closer look

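For 5 probes the members had a Dex response that differed between the genotypes by the test of the difference itself, taken as Sox7 (-/-) minus Sox7 (+/-) on the log2 scale, with limma adjusted p under 0.05. Over all tested genes, 28.8% passed that threshold. The difference was -0.51 for the brightest Nid1 probe, which was higher on 3 of 3 XEN-like arrays than on any ES array in either genotype. It was 0.89 for the brightest Agrn probe. For the dim Agrn probe the fit gave 2.31, which is not a size of the difference, since it was well above background on no Sox7 (+/-) XEN-like array and on 1 of 3 Sox7 (-/-) ES arrays. It was 0.89 for the second Sparc probe and -1.26 for Fn1. For the dim Agrn probe, the second Sparc probe and Fn1 the difference missed the adjusted p once slide was a block, at 0.052, 0.051 and 0.076. The Nid1 difference missed it with quantile normalization (-0.27, adjusted p = 0.14), with spike-in scaling (-0.11, adjusted p = 0.73) and in the deposited table (-0.0574, adjusted p = 0.91), and the Fn1 difference with spike-in scaling (adjusted p = 0.17) and in the deposited table (adjusted p = 0.067). Slide, cell line and genotype overlap in these arrays, and their part was not tested.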

How the results depend on the processing

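Of 1459 values of single probes under alternatives, 1366 kept their direction and side of the adjusted p threshold. Of the rest, 63 were weaker, 26 stronger and 4 reversed. These labels leave out moves across the 2-fold limit, so they do not count how many calls were kept. Fn1 between XEN-like cells, for example, fell under 2-fold with normexp, spike-in scaling and the deposited table without being counted as weaker. The reversed ones were the brightest Sparc probe in Sox7 (+/-) cells with spike-in scaling (-0.0192) and in the deposited table (-0.0206), its difference in response with quantile normalization (0.48), and Smoc1 between XEN-like cells without Sox7 (+/-) XEN-like replicate 3 (-0.27, within -0.27 to 0.23 over single arrays left out). The cause was not tested. With no minimum fold, 4 members were called higher and 2 lower in Sox7 (+/-) cells and 4 higher in Sox7 (-/-) cells, 1 higher and 2 lower between XEN-like cells, 1 higher and 1 lower between ES cells, and 1 higher and 2 lower in the difference in response. Over all tested genes, both directions together, 64.0%, 66.3%, 35.3%, 46.6% and 28.8% passed in these comparisons, in that order. In Sox7 (+/-) cells 2 were called lower with spike-in scaling, in the deposited table (Agrn beside Fn1 in both) and with no filter on dim probes, where Smoc2 entered, and leaving out single arrays gave 1 to 2 called higher. In Sox7 (-/-) cells 1 was called higher with quantile and median scaling. Between XEN-like cells 1 was called higher with no filter and with the mean of probes, 2 were called lower with quantile and median scaling, with slide as a block and without Sox7 (-/-) XEN-like replicate 1 (1 to 2 over single arrays left out), and 0 with normexp, spike-in scaling and the deposited table. In the difference in response 1 was called higher with quantile, normexp, spike-in scaling, the deposited table, no filter and the mean of probes. With spike-in scaling and the deposited table this was Agrn. In the same comparison 0 were called lower with spike-in scaling, the deposited table and slide as a block.

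Spike-in scaling moved the median of all tested genes by -0.49 in Sox7 (+/-) cells and 0.40 in the difference in response, and the deposited table by -0.40 and 0.35. The split of called genes in Sox7 (+/-) cells was 2076 higher and 2661 lower, against 928 and 3969 with spike-in scaling and 659 and 2711 in the deposited table. Between XEN-like cells it was 783 and 644, against 1235 and 336, and 956 and 95. In the difference in response it was 1325 and 596, against 2268 and 259, and 1544 and 172.

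With the replicate block the counts of members called were those without it, in Sox7 (+/-) cells 1 higher and 1 lower, in Sox7 (-/-) cells 2 and 1, between XEN-like cells 0 and 1, between ES cells 0 and 0, and in the difference in response 0 and 1. Deviations of same-numbered arrays correlated at -0.0513 to 0.126, and 8 of 12 arrays correlated best with their own number. Whether the numbers pair the arrays was not settled by these values, and the main fit does not pair them. Signal over background limits Smoc2 and the second Agrn probe.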
